A study of Rattus norvegicus with 43 samples.

Results

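Rat primary hepatocytes (RPH) attach to collagen within hours of plating and then flatten and spread. The data described here compare RPH after 24 h of culture with RPH after 4 h, the interval in which plated cells spread, and ask which changes of the first 4 h turned back, which stayed and which began only then. Both groups were taken by the labelled time since seeding. They hold 17 of 43 arrays and, once the technical arrays of a rat are averaged, 6 of 15 samples.

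The samples came from 3 male Sprague Dawley rats, and every rat gave a sample to every group, so the animals are the same at each time. A lobe of liver was tied off before perfusion, the pellet of isolated cells was the 0 h RPH sample, and plated cells were collected at 4, 24 and 48 h. No group received a drug. All plated cells were kept in William's E medium with glutamate, gentamicin, insulin, transferrin and dexamethasone, and fetal bovine serum was present up to 4 h and left out afterwards. Time in culture and the removal of serum therefore cannot be told apart in this comparison. The isolated cells are enriched hepatocytes and still hold other liver cells, so that fewer cells of a type and less RNA per cell cannot be told apart either. Spreading itself was not measured by the arrays.

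Hepatocytes in the liver are polarized epithelial cells that carry out drug and bile acid metabolism, nitrogen disposal and the secretion of plasma proteins. Isolation breaks their contacts with neighbors and matrix, and plating is known to be followed by stress and immediate early gene expression, then by the building of actin bundles and adhesions as the cells flatten. Over the same period cultured hepatocytes are known to lose much of their specialized metabolism.

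RNA was measured on Affymetrix RG230-2 arrays, with 8 arrays at 4 h and 9 at 24 h, since 1 array of rat 3 at 4 h was excluded by the authors. Values are linear MAS5 signals, scaled on each array to a trimmed mean of 500, so a change is relative to the other transcripts of the array. Arrays had a median signal of 79.7 to 115 at 4 h and 84.4 to 111 at 24 h. Signals were taken to log2 and fitted with limma over the 15 samples, and the threshold for a call was a p under 0.05 after Benjamini-Hochberg adjustment over 10649 genes. The signal is that of the gene's brightest probe set, and signals of different genes are not compared with each other. Below, values in single rats are given in the order of rats 1, 2 and 3, and each fold change is a mean over 3 rats per group with the standard error (SE) from limma. Signals under about 32 are close to the noise of the array, and where the mean of a group is that low a second log2 fold change follows, computed after adding 32 (the offset) to every signal. The 3' to 5' signal ratio of the beta-actin control increases with RNA degradation. It was 2.85 to 3.12 at 4 h and 2.23 to 2.50 at 24 h, and its part in the results was not tested beyond a fit that holds it as a covariate, in which 3931 genes were called.

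Between 4 and 24 h, 4238 of 10649 genes (39.8%) were called. Of these, 2798 rose (26.3% of all genes) and 1440 fell (13.5%), and the median log2 fold change of all genes was 0.14. The change had the same sign in each of the 3 rats for 4228 of the called genes. The called genes include 77 that rose and 73 that fell 8-fold or more. The excess of rises was smaller under other scalings. With each array centred on its median 2147 genes rose and 1342 fell, and with quantile normalization 2543 rose and 1641 fell. With the rat as a block over all 15 samples, 4999 genes were called, which include 4231 of the 4238, and 5352 over the 12 RPH samples. Without rat 3 the count was 2487, without rat 1 3077 and without rat 2 3011. In the preceding interval, 4 h vs. 0 h, 4144 genes were called (38.9%, of which 16.3% of all genes rose and 22.6% fell, so that 41.8% of the calls were rises, against 51.1% of 3232 calls with each array centred on its median), and in the next one, 48 h vs. 24 h, 456 (4.28%). These intervals share samples with the one described here and the counts were not compared by a test.

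**Figure D1:**
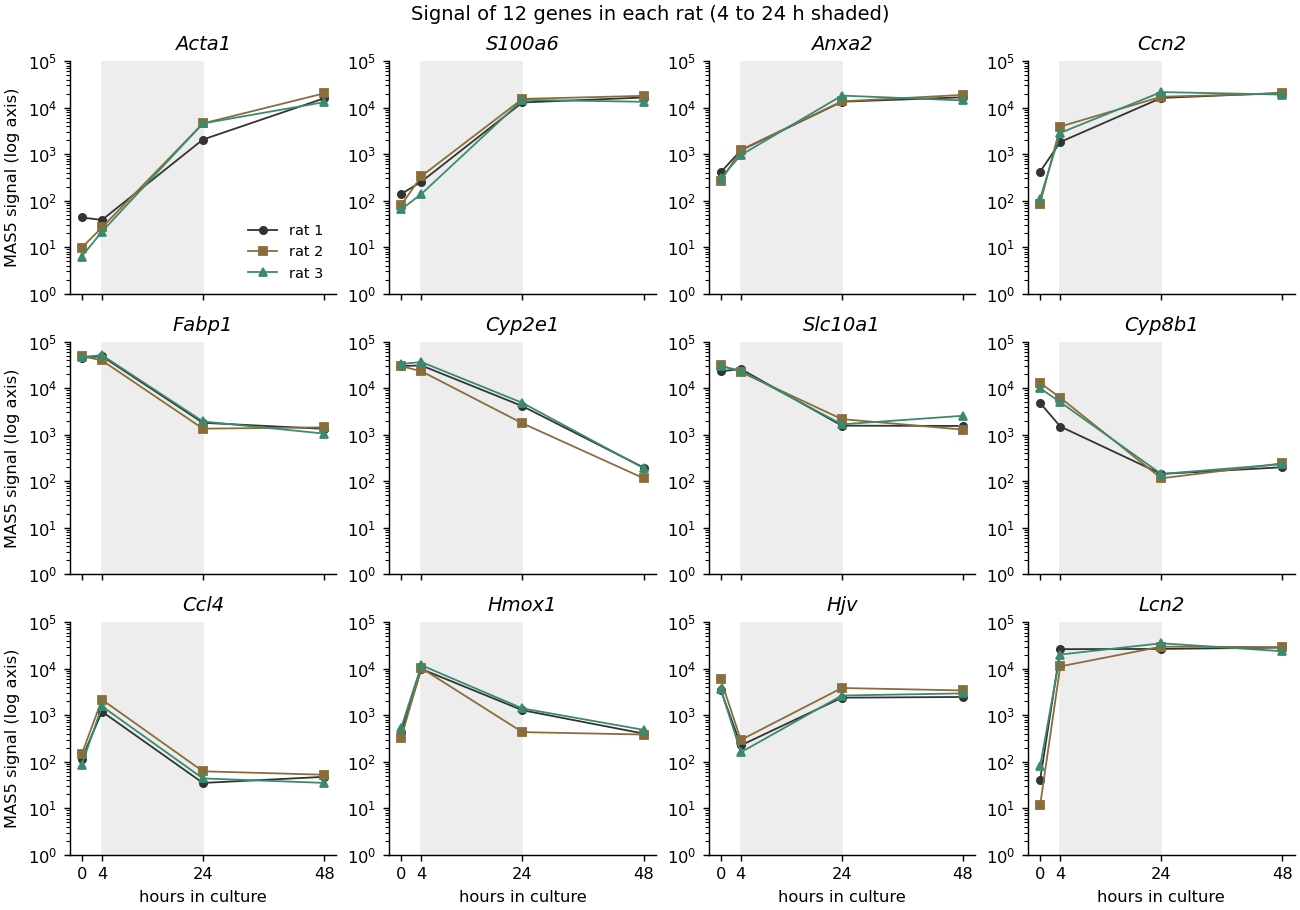
MAS5 signal (log axis) of 12 genes against hours in culture, with a line for each of the 3 rats and the interval from 4 to 24 h shaded. Acta1, S100a6, Anxa2 and Ccn2 rise across the shaded interval in every rat, Fabp1, Cyp2e1, Slc10a1 and Cyp8b1 fall, Ccl4, Hmox1 and Hjv turn back towards their 0 h signal, and Lcn2 has its large rise before the shaded interval.

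The largest rises at 24 h vs. 4 h included genes for contractile and calcium-binding proteins. Tagln, which encodes the actin-binding protein transgelin, had signals of 3.48, 5.56 and 4.52 at 4 h and 423, 1757 and 837 at 24 h. The 4 h signals are within the noise of the array, and every rat was far above them at 24 h (log2 fold change 7.59, SE 0.41, adjusted p = 5.57e-08, with the offset 4.60). Acta1, skeletal muscle alpha-actin, went from 38.3, 26.4 and 21.5 at 4 h to 2054, 4563 and 4567 at 24 h (log2 fold change 6.97, SE 0.56, adjusted p = 1.52e-06, with the offset 5.77). Rat 1 had the lowest Acta1 signal at 24 h, and its value was still above all 3 rats at 4 h. Myh10, the heavy chain of nonmuscle myosin IIB, had 36.3, 10.2 and 13.1 at 4 h and 494, 574 and 662 at 24 h (log2 fold change 5.08, SE 0.54, adjusted p = 1.42e-05, with the offset 3.55). Flna, the actin crosslinker filamin A, was at 212, 212 and 224 at 4 h and then at 1899, 3156 and 3977 at 24 h (log2 fold change 3.74, SE 0.29, adjusted p = 1.19e-06). In none of these genes did the groups overlap. Ankrd1, a cardiac ankyrin repeat protein that responds to mechanical load, had 43.4, 12.6 and 2.85 at 4 h and 503, 397 and 529 at 24 h (log2 fold change 5.35, SE 0.67, adjusted p = 4.75e-05, with the offset 3.30). Pglyrp1, which binds bacterial peptidoglycan, went from 15.8, 3.60 and 6.45 at 4 h to 994, 219 and 754 at 24 h (log2 fold change 6.26, SE 0.79, adjusted p = 4.98e-05, with the offset 3.85). Pla2r1, a receptor of secreted phospholipases, went from 323, 114 and 191 at 4 h to 3977, 3116 and 6149 at 24 h (log2 fold change 4.47, SE 0.42, adjusted p = 4.67e-06). In these 3 genes too all rats at 24 h lay above all rats at 4 h.

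Of the 60 measured members of a list of actin cytoskeleton and contractile proteins, 36 rose and 2 fell, or 60% and 3.33% against 26.3% and 13.5% of all genes. The median log2 fold change of the list was 0.79, against 0.14 over all genes. Of the 36, 27 had no call at 4 h vs. 0 h, and 6 had already risen by 4 h. Annexins and S100 proteins, calcium-binding proteins at membranes and the cytoskeleton, had 15 risers and 0 fallers among 20, and the highest list median at 24 h vs. 4 h of the 38 process lists (1.78). S100a6 (calcyclin) had signals of 255, 335 and 139 at 4 h and 12886, 15356 and 14696 at 24 h (log2 fold change 5.97, SE 0.33, adjusted p = 6.28e-08). S100a11 went from 208, 226 and 239 at 4 h to 7893, 13079 and 13178 at 24 h (log2 fold change 5.63, SE 0.31, adjusted p = 6.28e-08). Anxa2, an annexin that links membranes to actin, had 1202, 1228 and 950.1 at 4 h and 13372, 13599 and 18097 at 24 h (log2 fold change 3.73, SE 0.20, adjusted p = 4.24e-08). In the 3 genes the lowest 24 h rat was far above the highest 4 h rat.

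Lists for the contact between cell and matrix, for microtubules and for cell junctions are read against the 26.3% of all genes that rose and the 13.5% that fell. Integrins and focal adhesion proteins had 17 of 43 members that rose and 1 that fell (39.5% and 2.33%, median 0.37). Cav1, the coat protein of caveolae, was at 46.6, 56.1 and 59.9 at 4 h and 410.0, 1230.5 and 841 at 24 h (log2 fold change 3.80, SE 0.47, adjusted p = 4.47e-05). Tubulins and microtubule proteins counted 10 risers and 0 fallers among 24 (41.7% and 0%). Targets of YAP and TEAD, the transcription factors that respond to cell tension, had 10 risers and 3 fallers among 29 (34.5% and 10.3%), near the 26.3% and 13.5% of all genes. Among them Ccn2 (connective tissue growth factor), a secreted matrix protein, went from 1819.8, 3907 and 2853 at 4 h to 16115, 17104 and 21557 at 24 h (log2 fold change 2.73, SE 0.48, adjusted p = 5.99e-04), after a rise from 0 to 4 h (log2 fold change 4.11). Ajuba, a LIM protein of adhesions, had 439, 729.5 and 508 at 4 h and then 2490.4, 2869 and 3963 at 24 h (log2 fold change 2.48, SE 0.34, adjusted p = 8.93e-05). The 24 h rats were above the 4 h rats in both genes. Igfbp3, which carries IGF and is on the same list, fell from 579, 345 and 621 at 4 h to 121, 65.5 and 96.1 at 24 h (log2 fold change -2.45, SE 0.43, adjusted p = 6.23e-04). Cell junction genes split into 13 that rose and 7 that fell of 35 (37.1% and 20%). Tjp3, a scaffold of tight junctions, rose from 13.9, 22.9 and 16.6 at 4 h to 225, 279 and 355 at 24 h (log2 fold change 4.01, SE 0.41, adjusted p = 8.93e-06, with the offset 2.63). Gjb2 (connexin 26), a gap junction subunit of hepatocytes, fell from 12029.7, 9118 and 9342 at 4 h to 3292, 2511 and 1662 at 24 h (log2 fold change -2.07, SE 0.25, adjusted p = 4.08e-05).

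Tagln is also a marker of stellate cells and fibroblasts, which can contaminate hepatocyte preparations and spread on plastic. On the list of 20 measured stellate cell and fibroblast markers, 4 rose (Tagln, Acta2, Dcn and Rgs5) and 0 fell, or 20% and 0% against 26.3% and 13.5% of all genes. The summed signal of the list was 2165 to 5604 at 4 h and 4200.0 to 4972 at 24 h, which overlap, and was higher at 0 h (7359.7 to 14549.5). Acta2, smooth muscle actin, had 384, 241 and 219 at 4 h and 846, 425 and 623 at 24 h (log2 fold change 1.16, SE 0.37, adjusted p = 0.0244), a call that did not stand without rat 1 or rat 3, without the 4 h sample of rat 2 or 3, without the 24 h sample of rat 1 or 3, or with the beta-actin ratio as a covariate (adjusted p up to 0.229, limma). The calls of Dcn without rat 3 (adjusted p = 0.108, limma) and of Rgs5 without rat 1 or rat 2 (up to 0.0904) were also lost. In Acta2 the lowest 24 h rat was just above the highest 4 h rat. Col3a1, a fibrillar collagen, had 744, 169 and 1441 at 4 h and 316, 173 and 455 at 24 h (log2 fold change -0.96, SE 0.69, adjusted p = 0.294), with overlapping groups. It was called as a fall with the rat as a block over the 12 RPH samples (adjusted p = 0.0315, limma), without rat 2 (0.0411) and without the 4 h sample of rat 2 (0.0257), and not with the block over 15 samples (0.147). The part of these cells in the rise of the contractile genes was not tested.

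Promoter windows of a few of these genes are shown. Some contractile genes and some immediate early genes hold a known binding sequence for serum response factor (SRF). The called members of the lists of these genes mostly moved in opposite directions. The windows are those of RefSeq on build GRCr8 and run from 250 bases before to 50 after the annotated start, and 147 of 192 genes named by rule had one. Capitals mark the SRF CArG box and the TEAD sequence GGAATG in Acta1, GGAATG in Ccn2, the AP-1 sequence TGANTCA and GGAATG in Anxa2, the CArG box in the immediate early gene Egr2, and the E-box CACGTG in the ribosome biogenesis gene Rrp12. Matches were searched on both strands. Of the contractile genes above, Acta2, Flna and Myh10 had a TEAD match and no CArG match.
Acta1 (chr19:68784145-68784444, minus strand): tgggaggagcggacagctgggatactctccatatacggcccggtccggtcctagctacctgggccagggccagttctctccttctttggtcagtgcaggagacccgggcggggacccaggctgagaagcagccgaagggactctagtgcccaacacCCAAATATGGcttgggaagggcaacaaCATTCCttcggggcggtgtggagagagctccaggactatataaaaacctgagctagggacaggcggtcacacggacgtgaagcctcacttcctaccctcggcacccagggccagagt
Ccn2 (chr1:22624565-22624864, minus strand): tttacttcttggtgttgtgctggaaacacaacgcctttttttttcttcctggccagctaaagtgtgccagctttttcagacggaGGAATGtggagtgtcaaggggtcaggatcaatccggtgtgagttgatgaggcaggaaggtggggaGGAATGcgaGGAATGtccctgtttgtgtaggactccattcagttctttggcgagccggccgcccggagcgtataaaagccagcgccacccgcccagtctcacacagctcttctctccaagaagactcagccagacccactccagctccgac
Anxa2 (chr8:78986002-78986301, plus strand): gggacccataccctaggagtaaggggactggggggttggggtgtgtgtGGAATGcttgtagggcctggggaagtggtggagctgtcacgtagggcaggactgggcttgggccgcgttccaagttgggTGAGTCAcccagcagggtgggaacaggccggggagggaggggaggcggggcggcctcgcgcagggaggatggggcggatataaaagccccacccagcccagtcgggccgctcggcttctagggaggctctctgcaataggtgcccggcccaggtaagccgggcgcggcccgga
Egr2 (chr20:21054392-21054691, minus strand): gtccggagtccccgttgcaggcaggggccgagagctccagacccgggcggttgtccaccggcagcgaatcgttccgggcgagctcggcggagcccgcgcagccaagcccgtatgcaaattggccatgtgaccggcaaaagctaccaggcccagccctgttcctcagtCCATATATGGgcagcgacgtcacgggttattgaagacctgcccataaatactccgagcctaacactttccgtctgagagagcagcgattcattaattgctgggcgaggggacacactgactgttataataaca
Rrp12 (chr1:250655269-250655568, minus strand): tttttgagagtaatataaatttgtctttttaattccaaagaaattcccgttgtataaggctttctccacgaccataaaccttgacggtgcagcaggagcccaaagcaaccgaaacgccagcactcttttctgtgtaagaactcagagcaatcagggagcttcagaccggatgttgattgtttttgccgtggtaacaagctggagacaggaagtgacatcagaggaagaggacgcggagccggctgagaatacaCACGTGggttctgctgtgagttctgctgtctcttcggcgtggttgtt
The CArG box was found in 5 of 56 windows of the actin and contractile list (8.93%) and in 6 of 32 of the immediate early genes (18.8%), against 1.64% of all windows. The TEAD sequence was in 8 of 23 windows of the YAP and TEAD targets (34.8%) and in 25% of those of the actin list, against 14.2% of all windows. The E-box was in 27 of 89 windows of the ribosome biogenesis genes (30.3%) against 6.42% of all, and AP-1 in 7 of 25 windows of the chemokine and cytokine list (28%) against 7.33%. Over only the windows of the genes tested, the shares were 1.55% (CArG box), 11.4% (TEAD), 9.17% (E-box) and 5.14% (AP-1). By class of change, the CArG box was in 1.47% of the windows of rises begun after 4 h and in 1.36% of those of reversed rises. A match of letters is a description of the window and not a bound site, and no test was made of these shares.

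The largest falls included genes of hepatocyte metabolism and secretion. Fabp1, the fatty acid carrier of the hepatocyte cytosol, had signals of 48731, 39502 and 51326 at 4 h and 1799.8, 1345 and 1923 at 24 h (log2 fold change -4.79, SE 0.17, adjusted p = 9.48e-10), while its change from 0 to 4 h was -0.02 (adjusted p = 0.942, limma). Sult1c3, a sulfotransferase, went from 12659.8, 11166 and 13604 at 4 h to 243, 189 and 225 at 24 h (log2 fold change -5.84, SE 0.18, adjusted p = 4.60e-10), the largest fall under the naming rule. Sult1e1, the estrogen sulfotransferase, fell from 23424, 20079 and 22208 at 4 h to 387, 1008 and 861 at 24 h (log2 fold change -4.98, SE 0.32, adjusted p = 2.24e-07). Rgn (regucalcin), a calcium-binding lactonase of hepatocytes, was at 19714, 19096 and 22216 at 4 h and 421, 541 and 459 at 24 h (log2 fold change -5.43, SE 0.20, adjusted p = 1.30e-09). Each of these genes had its highest 24 h rat far below its lowest 4 h rat. Gstp3, a pi class glutathione transferase, fell from 7506, 7669.9 and 9318 at 4 h to 159.5, 88.2 and 240.1 at 24 h (log2 fold change -5.76, SE 0.27, adjusted p = 1.08e-08). Serpina7, the thyroxine-binding globulin of plasma, fell from 1179, 508 and 1368 at 4 h to 52.2, 23.2 and 63.9 at 24 h (log2 fold change -4.46, SE 0.46, adjusted p = 9.86e-06). Related sulfotransferases and glutathione transferases have similar sequences, and cross-hybridization among them was not tested.

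The fall reached the main functions of the liver to different degrees. Of 42 genes of P450 drug metabolism, 23 fell and 5 rose (54.8% and 11.9% against 13.5% and 26.3% of all genes, median -1.02). Cyp2e1, which oxidizes ethanol and other small molecules, had 30788, 23099 and 36499 at 4 h and 4104, 1756 and 4831 at 24 h (log2 fold change -3.18, SE 0.32, adjusted p = 8.86e-06). Cyp2c11, the male-specific steroid hydroxylase, went from 28455, 26539 and 30682 at 4 h to 8676, 11297 and 8330.2 at 24 h (log2 fold change -1.61, SE 0.19, adjusted p = 3.47e-05). Cyp3a2 had 27079.9, 21991 and 29493 at 4 h and 11920.0, 6665 and 11563 at 24 h (log2 fold change -1.42, SE 0.33, adjusted p = 0.00438), and its call did not stand without rat 3 (adjusted p = 0.059, limma). The 3 P450 genes had log2 fold changes of -0.06, -0.07 and -0.03 at 4 h vs. 0 h and were not called there.

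Bile acid synthesis and transport had 21 fallers and 6 risers among 36 (58.3% and 16.7% against 13.5% and 26.3% of all genes). Slc10a1 (NTCP), the sodium-dependent bile acid uptake carrier, went from 25808, 22173 and 23784 at 4 h to 1562, 2162 and 1667 at 24 h (log2 fold change -3.75, SE 0.23, adjusted p = 1.46e-07). Slco1b2, an organic anion uptake carrier, had 9193, 8507 and 7504 at 4 h and 573, 609 and 609 at 24 h (log2 fold change -3.81, SE 0.13, adjusted p = 9.48e-10). Cyp8b1, the sterol 12-alpha-hydroxylase, fell from 1497, 6239 and 5000.1 at 4 h to 143, 115 and 143 at 24 h (log2 fold change -4.76, SE 0.46, adjusted p = 6.59e-06), and rat 1 was the lowest at 4 h. Cyp7a1, the rate-limiting enzyme of bile acid synthesis, moved the other way. It had signals of 16976, 7522 and 6367 at 0 h, 237, 113 and 239 at 4 h and 531, 1733 and 616 at 24 h (log2 fold change 2.16, SE 0.67, adjusted p = 0.0207), so part of an early loss was regained. The regain was not called without rat 2, without rat 3 or without the 4 h or the 24 h sample of rat 2 (adjusted p up to 0.189, limma). Abcc3, a basolateral efflux pump of bile acids, had 25.2, 9.28 and 70.2 at 4 h and 269, 117 and 755 at 24 h (log2 fold change 3.50, SE 1.10, adjusted p = 0.0217, with the offset 2.37), a call lost without rat 1, without rat 2, without the 4 h sample of rat 2 or the 24 h sample of rat 3, and with the beta-actin ratio as a covariate (adjusted p up to 0.153, limma). Signals of Cyp7a1 and Abcc3 varied more between rats than those of the carriers that fell.

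In the urea cycle and amino acid catabolism 45 of 63 genes fell and 2 rose (71.4% and 3.17% against 13.5% and 26.3% of all genes). This was the highest share of fallers of any process list. Kmo, of tryptophan degradation, was at 1782, 2431 and 2137 at 4 h and 230.5, 259.8 and 184 at 24 h (log2 fold change -3.24, SE 0.25, adjusted p = 1.16e-06). Sds, serine dehydratase, had 259, 2036 and 146 at 4 h and 21.6, 25.7 and 30.3 at 24 h (log2 fold change -4.05, SE 0.84, adjusted p = 0.00189, with the offset -3.01). Oat, ornithine aminotransferase, fell from 3682, 9103 and 7201 at 4 h to 588, 397 and 719 at 24 h (log2 fold change -3.50, SE 0.41, adjusted p = 3.17e-05). Cps1, which starts the urea cycle, had 28784, 25048 and 23754 at 4 h and 20169, 15732 and 17664 at 24 h (log2 fold change -0.54, SE 0.16, adjusted p = 0.0183), a smaller change whose call was lost without rat 1, 2 or 3, without the 4 h sample of rat 1 or the 24 h sample of rat 2, and with quantile normalization (adjusted p up to 0.117, limma). In these genes every 24 h rat was below every 4 h rat. Fatty acid oxidation and ketogenesis had 24 fallers and 3 risers among 44 (54.5% and 6.82%). Ehhadh, of peroxisomal oxidation, was at 2544, 1988 and 5650.3 at 4 h and then 304, 291 and 521 at 24 h (log2 fold change -3.09, SE 0.39, adjusted p = 5.03e-05). Plasma proteins, coagulation and complement factors had 40 fallers and 0 risers among 68 (58.8% and 0%). Of the fallers, 34 had no call at 4 h vs. 0 h. Serpind1 (heparin cofactor II) went from 14277, 12282 and 14411 at 4 h to 995, 813 and 1316 at 24 h (log2 fold change -3.74, SE 0.20, adjusted p = 4.24e-08). Igfals, the acid-labile subunit that carries IGF in plasma, fell from 1848, 1291 and 2098 at 4 h to 37.8, 119.6 and 52.0 at 24 h (log2 fold change -4.79, SE 0.48, adjusted p = 8.03e-06).

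Not all hepatocyte genes were called between 4 and 24 h, which does not show that their levels were the same. Alb, serum albumin, had 31306, 32862 and 41315 at 4 h and 25942, 36160.1 and 38419 at 24 h (log2 fold change -0.08, SE 0.20, adjusted p = 0.79). Hnf4a, a nuclear receptor that sets hepatocyte identity, had 7688, 8673 and 7963 at 4 h and 7048, 7114 and 7593 at 24 h (log2 fold change -0.16, SE 0.19, adjusted p = 0.533), and its dimmer probe sets had differences of the opposite sign. Tat, tyrosine aminotransferase, had 4416, 5775 and 2810.0 at 4 h and 4746, 4201 and 5069 at 24 h (log2 fold change 0.17, SE 0.25, adjusted p = 0.642). The groups overlapped for Alb and Tat, and for Hnf4a the 24 h rats lay just below the 4 h rats. Of the 11 hepatocyte markers, 4 fell (Apob, Asgr2, Cps1 and Fgb) and 0 rose, or 36.4% and 0% against 13.5% and 26.3% of all genes. The summed signal of the 11 was 273144 to 315683 at 4 h and 210198 to 257922 at 24 h. Of 38 hepatocyte transcription factors, 7 rose and 7 fell (18.4% each, against 26.3% and 13.5% of all genes). At 24 h vs. 0 h, 4 of the 38 rose and 19 fell, where 24.2% of all genes rose and 17.3% fell. Oxidative phosphorylation had 2 risers and 1 faller among 68, well under the 39.8% of all genes called.

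**Figure D2:**
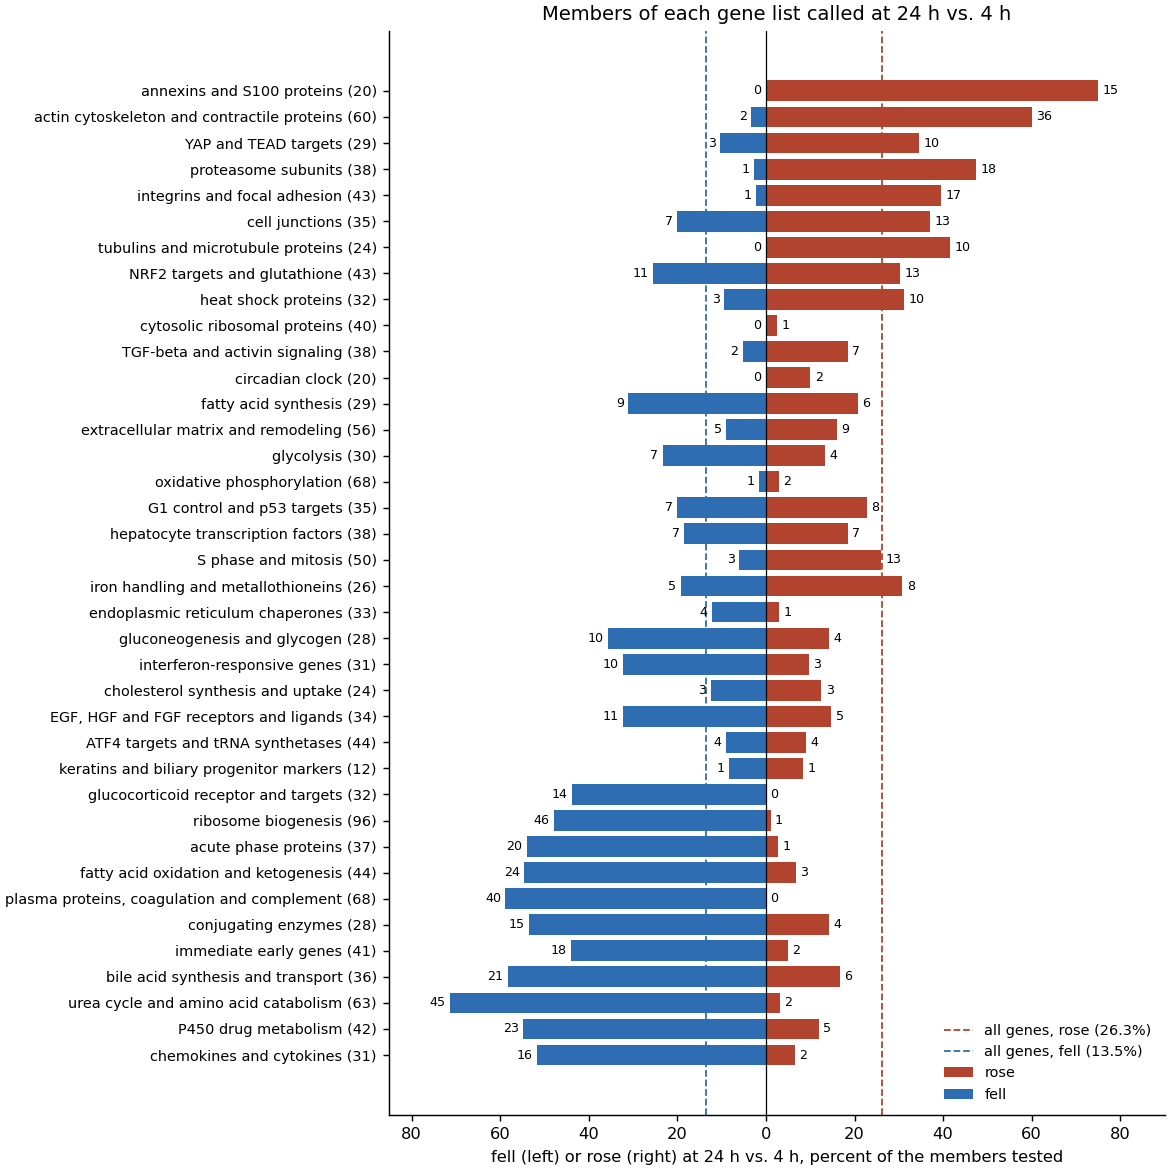
Share of the measured members of 38 process lists that rose (right) or fell (left) at 24 h vs. 4 h, in percent, with the number of genes at each bar, the number measured in brackets and the shares of all genes as broken lines (26.3% rose, 13.5% fell). Annexins and S100 proteins, the actin cytoskeleton and proteasome subunits lie farthest above the share of rises, and amino acid catabolism, plasma proteins and bile acid genes farthest above that of falls.

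To read this interval against the first 4 h, each gene was placed by its calls at 4 h vs. 0 h, 24 h vs. 4 h and 24 h vs. 0 h. Of the 4144 early changes, 1798 (43.4%) reversed, meaning that the gene was called in the opposite direction at 24 h vs. 4 h, 1351 (32.6%) persisted, with no call at 24 h vs. 4 h and a call at 24 h vs. 0 h in the early direction, and 410 (9.89%) continued in the same direction. The other 585 faded, with no call at 24 h vs. 4 h or in the early direction at 24 h vs. 0 h. A further 2030 genes had no call at 4 h vs. 0 h and a call at 24 h vs. 4 h, and are named begun. Of the begun genes, 580 (28.6%) were not called at 24 h vs. 0 h. A missing call at 4 h vs. 0 h does not show that the level had not yet moved. The 4 h samples enter both intervals with opposite signs, so that chance error in them alone can make a change look reversed, and the counts are a description that the rule fixes. At 24 h vs. 0 h, which does not use the 4 h samples, 41.5% of all genes were called (24.2% rose and 17.3% fell).

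**Figure D3:**
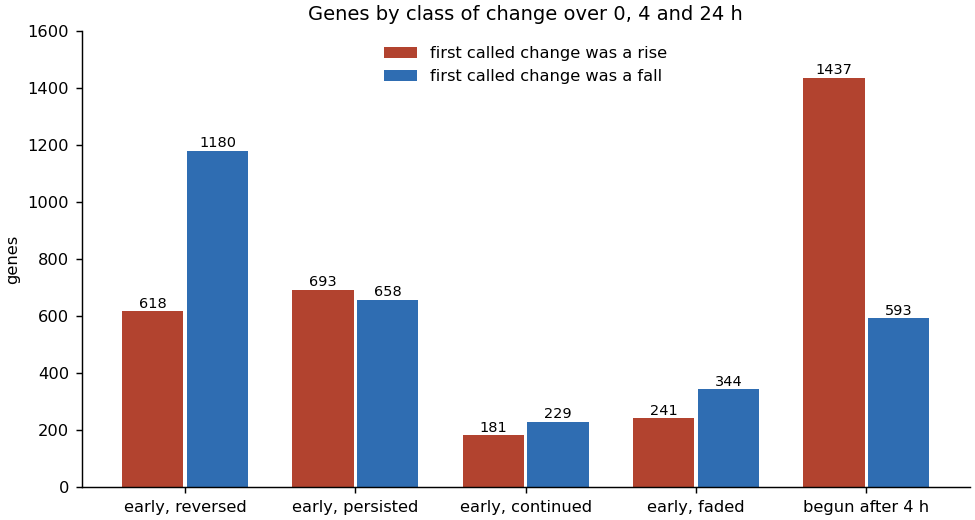
Number of genes (vertical axis) in each class of change, split by whether the first called change was a rise or a fall. The reversed changes hold 1180 early falls and 618 early rises (712 and 532 with each array centred on its median), and changes begun after 4 h were mostly rises (1437 against 593).

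With each array centred on its median, 712 early falls and 532 early rises reversed, so the excess of falls among them was smaller under that scaling. Among the 1180 early falls that reversed (11.1% of all genes), the median log2 fold change was -0.94 at 4 h vs. 0 h, 1.06 at 24 h vs. 4 h and 0.07 at 24 h vs. 0 h. At 24 h, 856 of them were not called against 0 h, 204 were called above and 120 below. The 618 early rises that reversed (5.8%) had medians of 1.22, -0.89 and 0.29, and 373 were not called against 0 h at 24 h, while 203 were above and 42 below. A missing call at 24 h vs. 0 h does not show that the level was the same. Persisted changes came to 693 rises (6.51%) and 658 falls (6.18%), continued changes to 181 rises (1.7%) and 229 falls (2.15%), and begun changes to 1437 rises (13.5%) and 593 falls (5.57%). With the rat as a block, 2261 early changes reversed, 1532 persisted, 615 continued and 2123 changes began, and in the 12 RPH samples with this block 730 continued. Continued changes came to 258 with each array centred on its median and to 249 without the 4 h sample of rat 1. Without rat 1, 2 or 3 in turn, 1012, 1038 and 917 early changes reversed and 175, 220 and 173 continued. The reversed changes without rats 1, 2 and 3 held 645, 674 and 594 early falls and 367, 364 and 323 early rises. In fits of only the groups compared, 747 early falls reversed. Without rat 2, 872 changes persisted.

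**Figure D4:**
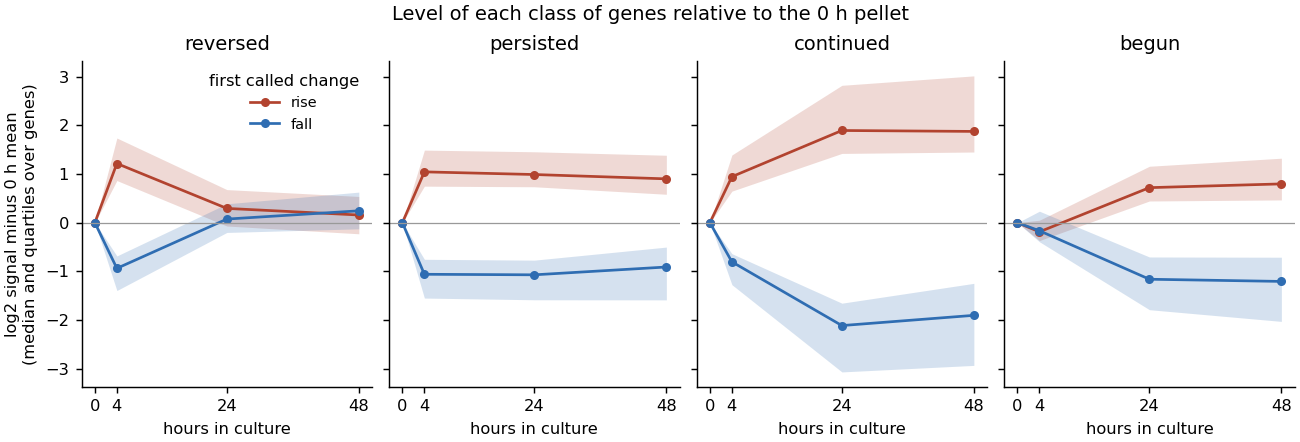
Median log2 signal relative to the mean at 0 h (line) with the quartiles over genes (band), against hours in culture, for rises and falls of the classes reversed, persisted, continued and begun. Reversed changes come back to near 0 by 24 h (medians 0.29 and 0.07), and in the reversed, continued and begun classes the medians move less from 24 to 48 h than from 4 to 24 h. Those classes are defined by a call at 24 h vs. 4 h, so the rule itself favors a larger step there.

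Early rises that reversed included inflammatory, stress and immediate early genes. Ccl4, a chemokine for monocytes, had signals of 115, 146 and 85.6 at 0 h, 1199, 2169 and 1562 at 4 h and 35.0, 62.3 and 43.7 at 24 h (log2 fold change -5.13, SE 0.30, adjusted p = 9.90e-08). Ccl3, its neighbor in function, had 166, 121 and 239.7 at 0 h, 1669, 2856 and 1455 at 4 h and 97.0, 47.5 and 83.9 at 24 h (log2 fold change -4.71, SE 0.47, adjusted p = 7.42e-06). Cxcl11, a chemokine for activated T cells, had 6219.7, 7171 and 6396 at 4 h and 476, 345 and 462 at 24 h (log2 fold change -3.96, SE 0.16, adjusted p = 2.68e-09). At 24 h Ccl4 and Cxcl11 were below their 0 h levels (log2 fold changes of -1.30 and -1.72, adjusted p = 0.00321 and 3.19e-06, limma), and the fold change of Ccl3 was -1.21 (adjusted p = 0.0519). On the chemokine and cytokine list 16 of 31 genes fell and 2 rose (51.6% and 6.45% against 13.5% and 26.3% of all genes). Of the 31, 6 were reversed rises and 8 were persisted rises, classes that held 5.8% and 6.51% of all genes. Chemokines are also products of Kupffer cells, the macrophages of the liver. Of 20 markers of these cells 6 fell and 0 rose (30% and 0%), with a summed signal of 19614 to 23884 at 4 h and 13114 to 16822 at 24 h. The part of these cells was not tested.

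Hmox1, heme oxygenase, had 428, 331 and 541 at 0 h, 9866, 10289 and 11904 at 4 h and 1282, 433 and 1402 at 24 h (log2 fold change -3.53, SE 0.36, adjusted p = 8.97e-06), with rat 2 the lowest at 24 h. Sphk1, which makes sphingosine phosphate, went from 1195, 1672 and 1259 at 4 h to 108, 41.2 and 72.6 at 24 h (log2 fold change -4.31, SE 0.37, adjusted p = 2.61e-06) after a log2 fold change of 5.78 (4.55 with the offset) from 0 to 4 h. Il1r1, the receptor of interleukin 1, had 10799, 10867 and 9229.7 at 4 h and then 1893, 1021 and 2400.4 at 24 h (log2 fold change -2.62, SE 0.28, adjusted p = 1.60e-05). Of 41 immediate early genes, 18 fell and 2 rose (43.9% and 4.88% against 13.5% and 26.3% of all genes). Of the 41, 8 fell after a rise by 4 h, a class that held 5.8% of all genes. Egr2, a zinc finger factor of this group, was at 195, 245 and 213 at 0 h, 1384, 1479 and 849.8 at 4 h and 236, 121 and 138 at 24 h (log2 fold change -2.93, SE 0.32, adjusted p = 1.53e-05). Maff, a small partner of bZIP factors, went from 1259, 1963 and 1162 at 4 h to 222, 110.4 and 183 at 24 h (log2 fold change -3.11, SE 0.39, adjusted p = 4.98e-05). Both were higher at 4 h than at either other time in each rat.

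Ribosome biogenesis factors, which build ribosomes in the nucleolus, were the list with the largest share of reversed rises. Of 96 measured genes 82 rose from 0 to 4 h, and 46 of them fell again by 24 h, or 47.9% against 5.8% of all genes with a reversed rise. The list medians were 1.09 at 4 h vs. 0 h and -0.48 at 24 h vs. 4 h, and at 24 h vs. 0 h still 0.63. Rrp12, a factor of ribosome export, had 300.5, 176 and 270.1 at 0 h, 1562, 2135 and 2319 at 4 h and 591, 895 and 694 at 24 h (log2 fold change -1.47, SE 0.27, adjusted p = 9.51e-04), and was still called above 0 h at 24 h. Rcl1, of 18S rRNA processing, had 6550.1, 8117 and 6616 at 0 h, 16849.8, 16026 and 14807 at 4 h and 4424, 5196 and 5480.5 at 24 h (log2 fold change -1.66, SE 0.14, adjusted p = 2.36e-06) and was called below 0 h at 24 h. Polr1b, a subunit of RNA polymerase I, went from 1376, 1625 and 1532 at 4 h to 517, 481 and 526 at 24 h (log2 fold change -1.57, SE 0.14, adjusted p = 3.48e-06). The cytosolic ribosomal proteins themselves had 1 riser and 0 fallers among 40 (2.5% and 0% against 26.3% and 13.5% of all genes). That riser, Rps3, was at the threshold (log2 fold change 0.36, adjusted p = 0.0499 by limma).

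Early falls that reversed included genes of iron and heme, transcription and DNA synthesis. Hjv (hemojuvelin), a coreceptor for hepcidin control, had 3528, 6019 and 3755 at 0 h, 225, 295 and 159.6 at 4 h and 2387, 3852 and 2656 at 24 h (log2 fold change 3.72, SE 0.27, adjusted p = 5.63e-07). Alas1, the first enzyme of heme synthesis, had 7628, 3678 and 6165 at 0 h, 924, 972 and 928 at 4 h and 3869.7, 4052 and 3745 at 24 h (log2 fold change 2.05, SE 0.26, adjusted p = 5.59e-05). Foxa2, a forkhead factor of the liver, had 1032, 1944 and 2857 at 0 h, 287, 411 and 222 at 4 h and 1398, 1934 and 1465 at 24 h (log2 fold change 2.41, SE 0.36, adjusted p = 1.98e-04). Inhba, the activin A subunit, had 3108, 3588 and 2825 at 0 h, 79.3, 104 and 116 at 4 h and 743, 1103 and 771 at 24 h (log2 fold change 3.12, SE 0.28, adjusted p = 3.36e-06). Inhba was still called below 0 h at 24 h, and Hjv, Alas1 and Foxa2 were not called against it. In all 4 genes the 4 h rats lay below every rat at 0 and 24 h. Some reversed falls went far past the 0 h level. Fads3, a desaturase, had 114, 101 and 111 at 0 h, 62.7, 57.1 and 47.0 at 4 h and 1917, 3180.5 and 3111 at 24 h (log2 fold change 5.59, SE 0.22, adjusted p = 1.54e-09). Rab3d, a GTPase of secretory vesicles, had 159.6, 87.7 and 146 at 0 h, 33.5, 18.1 and 54.4 at 4 h and 1424, 865 and 1509 at 24 h (log2 fold change 5.26, SE 0.35, adjusted p = 3.19e-07). Tagln was also counted as a reversed fall, but its early fall was between signals in the noise (11.7, 8.86 and 11.3 at 0 h) and with the offset it counted as begun. The same held for Slc66a3, a membrane protein of the PQ-loop family, which had 33.1, 12.99 and 21.0 at 4 h and 702, 1072 and 766 at 24 h (log2 fold change 5.32, SE 0.35, adjusted p = 2.60e-07, with the offset 3.92). Over all genes, 1737 of the 1798 reversed changes kept their class with the offset.

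Genes of S phase and mitosis had 13 risers and 3 fallers among 50 at 24 h vs. 4 h (26% and 6% against 26.3% and 13.5% of all genes, median -0.02). By 4 h 23 of the 50 had fallen, against 22.6% of all genes. Of the 23, 11 reversed and 9 persisted, classes of early falls that held 11.1% and 6.18% of all genes. At 24 h vs. 0 h, 1 of the 50 rose and 17 fell (median -0.47), where 24.2% of all genes rose and 17.3% fell. Pold1, a subunit of DNA polymerase delta, had 32.6, 20.7 and 25.6 at 4 h and 93.4, 94.9 and 125 at 24 h (log2 fold change 2.00, SE 0.18, adjusted p = 4.05e-06, with the offset 1.22). Mcm3, of the replicative helicase, went from 44.1, 10.7 and 54.2 at 4 h to 118, 88.2 and 132 at 24 h (log2 fold change 1.91, SE 0.50, adjusted p = 0.00767, with the offset 1.11). E2f1, which drives genes of DNA synthesis, had 18.3, 17.8 and 20.8 at 4 h and 59.3, 99.5 and 59.6 at 24 h (log2 fold change 1.90, SE 0.37, adjusted p = 0.00128, with the offset 0.95). The signals were low, but the 24 h rats were above the 4 h rats in each of the 3 genes. The early fall of E2f1 was not called with the offset. Ccnd1, the G1 cyclin, had 2952, 1873 and 1439.6 at 0 h, 1466, 895 and 1184 at 4 h and 964, 1094 and 892 at 24 h (log2 fold change -0.24, SE 0.25, adjusted p = 0.48), a fall that persisted.

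Persisted rises were large for a few genes. Lcn2 (lipocalin 2), an iron-siderophore binding acute phase protein, had 40.2, 11.5 and 79.98 at 0 h, 26384, 11236 and 20211 at 4 h and 26704, 29896 and 35276 at 24 h, with a log2 fold change of 9.09 (SE 0.53) at 4 h vs. 0 h and 0.74 (SE 0.53, adjusted p = 0.287 by limma) at 24 h vs. 4 h. Tubb6, a beta-tubulin, had 169, 95.0 and 162 at 0 h, 5018, 3471 and 4433 at 4 h and 3680.4, 2430.3 and 3940.2 at 24 h (log2 fold change -0.38, SE 0.24, adjusted p = 0.243). Lcn2 thus made its rise by 4 h, and its 24 h rats lay above the highest 4 h rat. Ppl (periplakin), a plakin of cell contacts, had 32.2, 9.75 and 85.4 at 0 h, 3403, 7755 and 3918 at 4 h and 1669, 1654 and 3002 at 24 h (log2 fold change -1.21, SE 0.63, adjusted p = 0.145), and its decline was called with the offset of 32, with the beta-actin ratio as a covariate and in a fit of only the groups compared. The 24 h rats of Ppl were all below its 4 h rats. Fabp4, a fatty acid carrier also listed as an endothelial marker, had 23.0, 3.75 and 20.7 at 0 h, 1668, 1165 and 1604 at 4 h and 1336, 630.3 and 1223 at 24 h (log2 fold change -0.53, SE 0.62, adjusted p = 0.531). Cdkn1a, the cell cycle inhibitor p21, had 1779, 691 and 1205 at 0 h, 3298, 3114 and 7955 at 4 h and 3309.8, 2183 and 5897 at 24 h (log2 fold change -0.31, SE 0.51, adjusted p = 0.668). For Tubb6, Fabp4 and Cdkn1a the 4 h and 24 h groups overlapped. A p above the threshold does not show that the 24 h level equals that at 4 h. Among persisted falls, Ppm1k, a mitochondrial phosphatase of branched-chain amino acid catabolism, had 3243, 2127 and 3696 at 0 h, 353, 225 and 599 at 4 h and 279, 299.9 and 282 at 24 h (log2 fold change -0.34, SE 0.30, adjusted p = 0.399). Jun, an AP-1 subunit, had 6356, 16882 and 15593 at 0 h, 4432, 6423 and 4741 at 4 h and 5752, 6055 and 5631 at 24 h (log2 fold change 0.18, SE 0.29, adjusted p = 0.665), and another probe set of Jun had a difference of the opposite sign.

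Continued changes were those in which both intervals were called in the same direction. Il1r2, the decoy receptor of interleukin 1, rose from 5.65, 15.7 and 6.64 at 0 h to 57.7, 16.5 and 53.5 at 4 h and 471, 623 and 752 at 24 h (log2 fold change 4.03, SE 0.51, adjusted p = 5.32e-05). Sult6b2, a sulfotransferase, rose from 14.1, 5.53 and 10.8 at 0 h to 303, 256 and 192 at 4 h and 3709.5, 4307 and 3265 at 24 h (log2 fold change 3.92, SE 0.39, adjusted p = 7.19e-06). In both genes the 3 times did not overlap, with the 0 h signals in the noise. For Il1r2 the 4 h signal of rat 2 was also in the noise, at 16.5 against 15.7 at 0 h. Cxcl12, a chemokine that the liver makes at rest, fell from 8874, 6939 and 7844 at 0 h to 3119, 2825 and 2384 at 4 h and 114, 80.5 and 77.5 at 24 h (log2 fold change -4.95, SE 0.19, adjusted p = 1.53e-09). Aqp9, the glycerol channel of hepatocytes, fell from 7796, 10279.6 and 10253 at 0 h to 5049, 6118 and 6563 at 4 h and 188, 241 and 280.4 at 24 h (log2 fold change -4.66, SE 0.18, adjusted p = 1.53e-09). Pck1, which commits to gluconeogenesis, fell from 31102, 35666 and 26561 at 0 h to 2001, 5682 and 2781 at 4 h and 178, 229.997 and 167 at 24 h (log2 fold change -4.06, SE 0.30, adjusted p = 8.19e-07). The 3 times did not overlap in any of these falling genes. Fos, an AP-1 subunit, was at 844, 3537 and 3134 at 0 h, 121, 109 and 232 at 4 h and 30.8, 6.02 and 13.5 at 24 h (log2 fold change -3.42, SE 0.63, adjusted p = 8.73e-04, with the offset -1.85), and Egr1 at 12338, 16482 and 15075 at 0 h, 4899.8, 4578 and 7962 at 4 h and 1214, 479 and 1084 at 24 h (log2 fold change -2.72, SE 0.40, adjusted p = 1.76e-04). Fos and Egr1 were highest at 0 h in each rat, whereas Egr2 and Maff were highest at 4 h in each rat. The transcription factors Atf3 (1159, 3063 and 1051 at 4 h and 712, 960.5 and 856 at 24 h) and Myc (1554, 3348 and 2912 at 4 h and 1943, 2136 and 2315 at 24 h) were not called between 4 and 24 h.

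Proteasome subunits, which degrade tagged proteins, were a list whose risers mostly had no earlier call. Of 38 measured, 18 rose and 1 fell (47.4% and 2.63% against 26.3% and 13.5% of all genes), with a median log2 fold change of 0.46. Of the risers, 16 had no earlier call, but the list median was already 0.16 at 4 h vs. 0 h, against -0.15 over all genes. In that first interval 5 of the 38 rose, where 16.3% of all genes rose. At 24 h vs. 0 h 25 of the 38 rose, where 24.2% of all genes rose. The steps were small, as for Psmb3, which went from 4128, 4731 and 3987 at 4 h to 6732, 8121 and 7393 at 24 h (log2 fold change 0.79, SE 0.16, adjusted p = 0.00148), and Psmd13, from 1482, 1509.7 and 1584 at 4 h to 2629, 2798 and 2467 at 24 h (log2 fold change 0.79, SE 0.17, adjusted p = 0.00271). Heat shock proteins had 10 risers and 3 fallers among 32 (31.2% and 9.38%), near the shares of all genes. Hspb1, a small heat shock protein that binds actin, rose from 801, 970.3 and 831 at 4 h to 4216, 5379.9 and 4662 at 24 h (log2 fold change 2.45, SE 0.24, adjusted p = 6.33e-06), and Cryab, of the same family, from 155, 180.3 and 63.7 at 4 h to 852, 2358 and 1118 at 24 h (log2 fold change 3.43, SE 0.44, adjusted p = 5.85e-05). In these 4 genes the groups did not overlap. Hspa1a, the inducible HSP70, had 510.3, 445 and 519.9 at 4 h and 649, 514 and 602 at 24 h (log2 fold change 0.25, SE 0.56, adjusted p = 0.754), with overlapping groups. Targets of NRF2 and glutathione genes split into 13 that rose and 11 that fell of 43 (30.2% and 25.6%). Gpx2, a glutathione peroxidase, rose from 15.9, 17.1 and 33.5 at 4 h to 301, 219 and 610.3 at 24 h (log2 fold change 4.04, SE 0.53, adjusted p = 6.82e-05, with the offset 2.74), and Nqo1, a quinone reductase, had 940.1, 636 and 565 at 4 h and 1155, 882 and 929 at 24 h (log2 fold change 0.50, SE 0.21, adjusted p = 0.0793), which was called with the rat as a block.

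**Figure D5:**
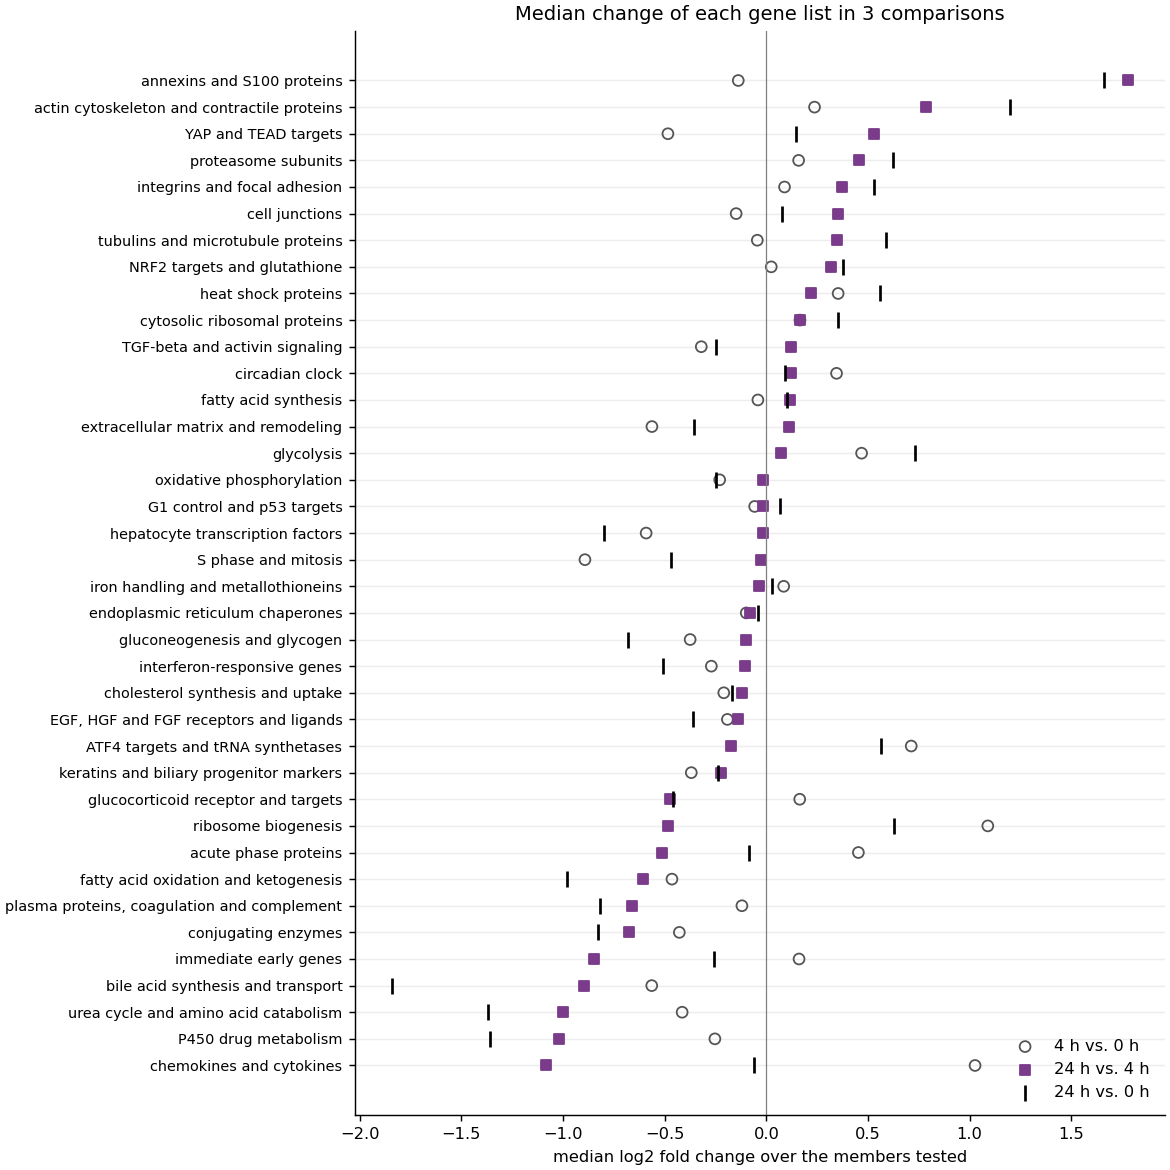
Median log2 fold change of the measured members of each process list at 4 h vs. 0 h (open circles), 24 h vs. 4 h (squares) and 24 h vs. 0 h (bars), with the lists ordered by the second. Ribosome biogenesis and chemokines have a median above 0 in the first interval and below 0 in the second, while bile acid, P450 and amino acid genes are below 0 in both.

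Markers of other liver cells mostly fell or were not called. Their counts are read against the 13.5% of all genes that fell and the 26.3% that rose. Sinusoidal endothelial markers had 5 fallers and 0 risers among 23 (21.7% and 0%), with 18 not called. Their summed signal was 6321 to 9611 at 4 h and 3554 to 6048 at 24 h. Kdr, the VEGF receptor of these cells, fell from 388, 292 and 684 at 4 h to 68.8, 47.5 and 91.2 at 24 h (log2 fold change -2.67, SE 0.48, adjusted p = 6.65e-04). MHC class II genes had 5 fallers and 1 riser among 8 (62.5% and 12.5%), with summed signals of 3656 to 4130.0 and 1902 to 2268. Cd74, the invariant chain, fell from 1152, 1559 and 1543 at 4 h to 443, 444 and 591 at 24 h (log2 fold change -1.53, SE 0.22, adjusted p = 1.62e-04). Kdr and Cd74 were lower in every rat at 24 h, and the riser of the MHC class II list was RT1-DMb, a chaperone subunit of peptide loading. Cd5l, a macrophage product, fell from 1685, 1675 and 2349 at 4 h to 647, 519.6 and 619.8 at 24 h (log2 fold change -1.66, SE 0.22, adjusted p = 6.17e-05). Lymphocyte markers had 2 fallers and 1 riser among 8 (25% and 12.5%), and cholangiocyte markers 1 and 1 among 6 (16.7% each). No neutrophil (2) or erythroid (5) marker was called. The summed signals of the Kupffer, endothelial and MHC class II lists at 24 h lay below every 4 h sample.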

How the data were processed

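Total RNA (Trizol, then RNeasy columns) of liver and of RPH at 0, 4, 24 and 48 h from 3 rats was hybridized by the authors to 43 Affymetrix RG230-2 arrays, up to 3 per rat and group. MAS5 signal intensities were deposited on a linear scale, adjusted on each array to a 2% trimmed mean of 500. Command Console MAS5 and affy are both named in the methods and the submitters' processing notes, and which of them gave the values was not found in either.

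Signals were taken to log2 and technical arrays averaged per rat and group. Of 31099 probe sets, 19013 exceeded the array median in at least 10% of arrays (5 of 43), and 14565 of them had 1 listed gene. Each of 10649 genes was represented by its brightest probe set over all arrays. Array annotation names may be old. limma 3.58.1 in R 4.3.3 fitted 5 group means over 15 samples without a block (10 residual degrees of freedom), and p-values were adjusted by Benjamini-Hochberg over all genes for each comparison. The same rat's residuals at 4 and 24 h correlated at 0.404 to 0.500, and the samples are those of the same animals, so the rat numbers pair them. Between the liver and RPH of a rat the correlations were -0.155 to 0.567, so blocks over 15 samples and over the 12 RPH samples were both tried. Other alternatives are listed in the closing section. The SD between rats had a median of 0.253 at 4 h and 0.233 at 24 h (log2). The fit was tested on simulated data.

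Genes were named by rule: the 10 largest rises and falls at 24 h vs. 4 h with the same sign in every rat and a signal above that of the median gene, the 4 largest of each class and direction, up to 4 called members of each list, and a set named whatever its values. The 47 gene lists (38 of processes, 9 of cell type markers) and the rule were chosen with earlier results of these data known. Promoters were chosen after their motifs were seen, from 33469 RefSeq GRCr8 windows.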

Additional observations from a re-analysis of the deposited data

How the results depend on the processing

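At 24 h vs. 4 h, 4238 genes were called. Over the alternatives of normalization, offset, filter, probe set, technical arrays, prior variance, samples in the fit, rat block and beta-actin covariate, this count lay between 3489 and 5352. Only stricter thresholds and left-out samples moved it by more than 1.5 times. At an adjusted p under 0.01, 2810 genes were called, of which 928 fell, with 2601 early changes, 976 reversed, 893 persisted and 162 continued. With an added 2-fold limit, 2005 were called (1282 rose and 723 fell), with 1984 early changes, of which 619 reversed, 693 persisted and 113 continued, and 1273 changes began after 4 h.

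Of the classes, continued changes depended most on the setting, with 258 after centring on the array median and 263 in fits of only the groups compared, against 410. The rats pair the samples, and with the rat as a replicate block 615 changes continued over 15 samples and 730 over the 12 RPH samples. Over 15 samples the block lost no call of the 192 named genes and added those of Nqo1 and of Slc34a2, a phosphate carrier. Over the 12 RPH samples it added those of Nqo1, Col3a1 and Gdf15, a stress-induced cytokine, and lost those of Rps3 and of Il1rn, the interleukin 1 receptor antagonist. Leaving out a rat or a single sample gave 2487 to 3794 genes changed, 1616 to 2583 that rose, 871 to 1326 that fell, 2633 to 4082 early changes, 917 to 1562 reversed, 872 to 1360 persisted, 173 to 376 continued and 1397 to 1986 begun. The lowest counts of genes changed, reversed, continued and begun came without rat 3. With the liver in place of the 0 h pellet, 4924 early changes were called, of which 1939 reversed. No gene called both in the original setting and in an alternative had opposite signs. Of 4781 values of named genes, 4524 stayed on the same side of the threshold. These include sign changes of genes called in neither setting, such as Alb (log2 fold change -0.22 to 0.15 over the settings). A further 237 values lost and 19 gained a call, and in 1 a called gene turned its sign. That gene was Lck, a lymphocyte kinase, with a log2 fold change of 0.63 that became -0.069 with only the first technical array of each rat (adjusted p = 0.854, limma). The cause was not tested. Of 2346 counts of list members that rose or fell, 1916 were within 1.5 times the original count, 297 were lower and 133 higher. Array signals near the noise limit the fold changes of dim genes, and 3 rats per group limit the precision of all.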

Other observations

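The counts of further regulatory and metabolic lists are read against the 26.3% of all genes that rose and the 13.5% that fell between 4 and 24 h. Of 32 genes of the glucocorticoid receptor and its targets, 14 fell and 0 rose (43.8% fell), with dexamethasone in the medium at both times. Sgk1, a kinase of ion transport, fell from 4972, 5699 and 9948 at 4 h to 474, 267 and 504 at 24 h (log2 fold change -4.04, SE 0.36, adjusted p = 3.70e-06), and Serpina6, the corticosteroid-binding globulin of plasma, from 14423, 11727 and 17430.3 to 1826, 1133 and 2547 (log2 fold change -3.04, SE 0.31, adjusted p = 9.62e-06). Per1, a clock gene, had 218, 257 and 133 at 4 h and 202, 223 and 247 at 24 h (log2 fold change 0.20, SE 0.58, adjusted p = 0.821). Acute phase proteins had 20 fallers and 1 riser among 37 (54.1% fell), and Il6r, the interleukin 6 receptor, fell from 4160.5, 4566 and 4119 to 1217, 961 and 1136 (log2 fold change -1.96, SE 0.23, adjusted p = 2.92e-05). Interferon-responsive genes counted 10 fallers and 3 risers among 31 (32.3% fell), and Oasl, of the oligoadenylate synthetase family, fell from 902, 979 and 954 to 199, 143 and 160.2 (log2 fold change -2.51, SE 0.22, adjusted p = 3.36e-06). Of receptors and ligands of growth factors, 11 of 34 fell and 5 rose (32.4% fell). Egfr, the EGF receptor, fell from 7299, 7591 and 5840.0 at 4 h to 2072, 1889.6 and 1589.9 at 24 h (log2 fold change -1.90, SE 0.37, adjusted p = 0.00133), and Igf2r, which clears IGF2 from the cell surface, rose from 666, 587 and 711 to 2124, 1919 and 2786 (log2 fold change 1.78, SE 0.17, adjusted p = 5.58e-06). TGF-beta and activin signaling had 7 risers and 2 fallers among 38 (18.4% and 5.26%), both under the shares of all genes. Unlike Inhba, the activin C subunit gene Inhbc fell, from 608, 527 and 685 to 139, 89.1 and 174 (log2 fold change -2.22, SE 0.36, adjusted p = 3.44e-04), and Id1, a target of BMP signals, rose from 228, 162 and 171 to 718, 464 and 628 (log2 fold change 1.68, SE 0.30, adjusted p = 6.44e-04).

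In carbohydrate metabolism, some genes rose and others fell. Aldoc, the brain-type aldolase, rose from 18.0, 19.5 and 29.1 at 4 h to 173, 109 and 231 at 24 h (log2 fold change 2.91, SE 0.31, adjusted p = 1.57e-05, with the offset 1.85), and Pfkm, the muscle phosphofructokinase, from 78.2, 69.2 and 97.3 to 227, 209 and 221 (log2 fold change 1.44, SE 0.15, adjusted p = 1.24e-05), while Fbp1, the gluconeogenic bisphosphatase of the liver, fell from 14291, 15718 and 20657 to 2983, 5598 and 3457 (log2 fold change -2.11, SE 0.25, adjusted p = 2.79e-05). Over the lists, glycolysis had 4 risers and 7 fallers among 30, and gluconeogenesis and glycogen 4 and 10 among 28. Fatty acid synthesis had 6 risers and 9 fallers among 29, cholesterol synthesis and uptake 3 of each among 24, and conjugating enzymes 4 and 15 among 28. In the lists of the endoplasmic reticulum and of ATF4 the share of genes called was under the 39.8% of all genes. Chaperones of the endoplasmic reticulum had 1 riser and 4 fallers among 33, with Xbp1, a factor of the unfolded protein response, at 19231, 19738 and 22182 at 4 h and 7832, 7657 and 9937 at 24 h (log2 fold change -1.27, SE 0.21, adjusted p = 3.46e-04), and ATF4 targets and tRNA synthetases had 4 of each among 44. Genes of the extracellular matrix and its remodeling had 9 risers and 5 fallers among 56, both shares under those of all genes, and Plat, the tissue plasminogen activator, rose from 214, 133 and 151 to 803, 490.1 and 922 (log2 fold change 2.14, SE 0.26, adjusted p = 3.32e-05). Of G1 control genes and p53 targets, 8 rose and 7 fell of 35, and Cdkn1c, the cell cycle inhibitor p57, fell from 109, 72.5 and 158 to 43.9, 11.4 and 22.2 (log2 fold change -2.27, SE 0.41, adjusted p = 7.15e-04, with the offset -1.28). Iron handling genes and metallothioneins had 8 risers and 5 fallers among 26, keratins and biliary progenitor markers 1 of each among 12, and clock genes 2 and 0 among 20.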
